A study of Mus musculus with 4 samples.

Results

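The 39 protein-coding genes of the 4 mouse Hox clusters were read in RNA sequencing of cells sorted as LT-HSCs, mouse long-term haematopoietic stem cells that divide rarely and can rebuild all blood lineages. A gene was taken when it was protein-coding in GENCODE M21 and its GRCm38 symbol was Hox, a cluster letter from a to d and a number. This gave 39 of 51912 Ensembl genes in the files, of which 21793 were protein-coding. The wild-type (WT) group and the Fam122a knockout (KO) group had 2 libraries each, all from C57BL/6 mice aged 8 to 12 weeks. They are called WT 1, WT 2, KO 1 and KO 2 here, after the replicate numbers of their labels. Each library came from sorted cells of 3 pooled animals. The sort took LSK cells (lineage-negative, Sca1+ and Kit+) without CD34 or Flk2. How the Fam122a allele was made, and in which cells it was lost, is not given in the sources used here. The values are taken as FPKM, fragments scaled to transcript length and library size, so levels can be compared between genes of a library.

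Hox genes encode homeodomain transcription factors and lie in clusters that arose by duplication, so that genes at the same place in different clusters form a paralogue group. They are known for patterning the body axis, with genes at the 3′ end of a cluster used earlier and more anteriorly than those at the 5′ end. In blood, genes of the HoxA cluster are used in stem and progenitor cells and are shut off as cells mature. HOXA9 acts with the partner MEIS1 and is a target of MLL fusion proteins in leukaemia.

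WT 2 stood apart from the other 3 libraries and is given separately throughout. Over 18214 genes its log2 values had a Pearson correlation of 0.131 with WT 1, -0.165 with KO 1 and -0.163 with KO 2. WT 1 had 0.834 with KO 1 and 0.824 with KO 2, against 0.967 between the KO libraries. These values are a description over genes that share a library. WT 1 thus also lay apart from the KO pair, and its median level of genes with a long span, given below, lay between those of WT 2 and KO. The targeted gene, Fam122a, had 18.4 FPKM in WT 1 and 7.46 in WT 2, and 0 in KO 1 and KO 2. The depth estimated from the values was 4230000 fragments for WT 1, 2500000 for WT 2, 6770000 for KO 1 and 5950000 for KO 2. Of 11 genes that mark LT-HSCs or the sort gate, 11 reached 1 FPKM in WT 1 and in each KO library. In WT 2 it was 8, with Ly6a (Sca1) and Procr at 0. Among the 11 are the RNAs of the markers the gate excludes: Cd34 was at 179, 18.2, 87.7 and 62.1 FPKM in WT 1, WT 2, KO 1 and KO 2, and Flt3 (Flk2) at 26.2, 16.1, 36.2 and 24.7. Neutrophil genes were present in every library: the 8 listed summed to 170090 FPKM in WT 1, 336 in WT 2, 73123 in KO 1 and 63594 in KO 2, with none at 0. The 8 erythroid genes summed to 51601, 183, 59709 and 79464 FPKM in the same order, and the 8 B cell genes to 5817, 15.9, 4256 and 6980. Monocyte and macrophage genes summed to 12653, 34.2, 8620 and 6786 FPKM, T and NK cell genes to 655, 17.1, 402 and 318, megakaryocyte genes to 112, 2.13, 87.9 and 42.9, and stromal and endothelial genes to 31.6, 61.6, 38.4 and 33.2. The part of these other transcripts in the Hox values was not tested, and in bulk RNA fewer cells of a type and less RNA per cell cannot be told apart.

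Promoter sequence is shown for Hoxa5, Hoxa9 and Hoxa10, which are among the few members expressed at all, so that their letters can be set beside their levels. RefSeq promoter windows (GRCm38.p6) were found for 22 of the 39 members, as 24 windows of 250 bases upstream of a transcript start. Hoxa10 has 2 of them, at separate starts, and the Hoxa9 window lies inside the longer GENCODE gene model. The window of Hoxa7, which is also expressed, holds 78 bases annotated as untranslated region, so its letters are not shown. The sequences run 5′ to 3′ on the minus strand, which holds the whole HoxA cluster. Capitals mark matches, on either strand, to 5 motifs. The TATA box was searched as TATAAA, the CCAAT box by its name, and the GC box as GGGCGG. A site that HOX proteins can bind together with PBX was searched as TGATNNAT, and a site of MEIS proteins as TGACAG. No marked match overlaps another.

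Hoxa5, chr6:52204588-52204837: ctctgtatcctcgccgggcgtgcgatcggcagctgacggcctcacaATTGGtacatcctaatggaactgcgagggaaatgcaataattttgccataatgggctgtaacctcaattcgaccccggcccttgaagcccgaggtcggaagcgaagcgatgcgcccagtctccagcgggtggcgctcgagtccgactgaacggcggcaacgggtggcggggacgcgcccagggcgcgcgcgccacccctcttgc
Hoxa9, chr6:52227371-52227620: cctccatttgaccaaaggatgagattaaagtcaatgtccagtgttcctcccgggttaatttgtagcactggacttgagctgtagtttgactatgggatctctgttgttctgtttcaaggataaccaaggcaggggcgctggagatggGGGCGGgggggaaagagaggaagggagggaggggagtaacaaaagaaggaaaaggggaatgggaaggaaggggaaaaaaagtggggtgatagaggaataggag
Hoxa10, inner start, chr6:52234940-52235189: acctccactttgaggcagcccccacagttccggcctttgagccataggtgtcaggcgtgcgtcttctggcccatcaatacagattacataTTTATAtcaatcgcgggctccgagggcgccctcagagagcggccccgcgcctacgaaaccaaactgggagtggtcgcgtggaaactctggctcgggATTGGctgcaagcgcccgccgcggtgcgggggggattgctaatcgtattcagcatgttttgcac
Hoxa10, outer start, chr6:52240855-52241104: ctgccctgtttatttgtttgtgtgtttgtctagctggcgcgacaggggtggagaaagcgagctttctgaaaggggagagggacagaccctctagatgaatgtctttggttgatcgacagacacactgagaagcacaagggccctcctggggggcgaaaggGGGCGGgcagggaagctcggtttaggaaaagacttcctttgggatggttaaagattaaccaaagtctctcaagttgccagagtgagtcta

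The 4 windows differ in CpG content. Hoxa5 has 28 CpG dinucleotides in its 250 bases, the inner Hoxa10 start 20, the outer Hoxa10 start 7 and Hoxa9 3, against a median of 6 over all 32851 RefSeq windows and 12.5 over the 24 Hox windows. CCAAT matched in the Hoxa5 window and the inner Hoxa10 window, and in 33.8% of all windows. GGGCGG matched in the Hoxa9 window and the outer Hoxa10 window, and in 32.7% of all windows. TATAAA matched only at the inner Hoxa10 start among these 4, and in 12.4% of all windows. Neither TGATNNAT (7.68% of all windows) nor TGACAG (15.9%) matched in any of the 4. The Hoxa7 window, not shown, has 7 CpG and no match to any of the motifs. The 12 windows of members at 0 in WT 1 and both KO libraries had a median of 13 CpG. A match is a run of letters and not evidence of binding.

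Hox RNA in these cells came mainly from the HoxA cluster. The 11 HoxA genes (chromosome 6, 52155590 to 52260880) summed to 29.4 FPKM in WT 1, 38.7 in KO 1 and 26.2 in KO 2. That was 91.6% of all Hox FPKM in WT 1 and 94.9% and 84.9% in the KO libraries. The 10 HoxB genes (chromosome 11, 96194316 to 96368256) summed to 1 FPKM in WT 1, 1.98 in KO 1 and 4.53 in KO 2. HoxC and HoxD RNA was sparse outside WT 2. The 9 HoxC genes (chromosome 15, 102921103 to 103036852) summed to 0.57 FPKM in WT 1, 0.11 in KO 1 and 0.13 in KO 2, and the 9 HoxD genes (chromosome 2, 74668310 to 74765142) to 1.13, 0 and 0 FPKM. WT 2 had another order, with 7.11 FPKM from HoxA, 8.78 from HoxB, 26.8 from HoxC and 12.8 from HoxD.

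**Figure D1:**
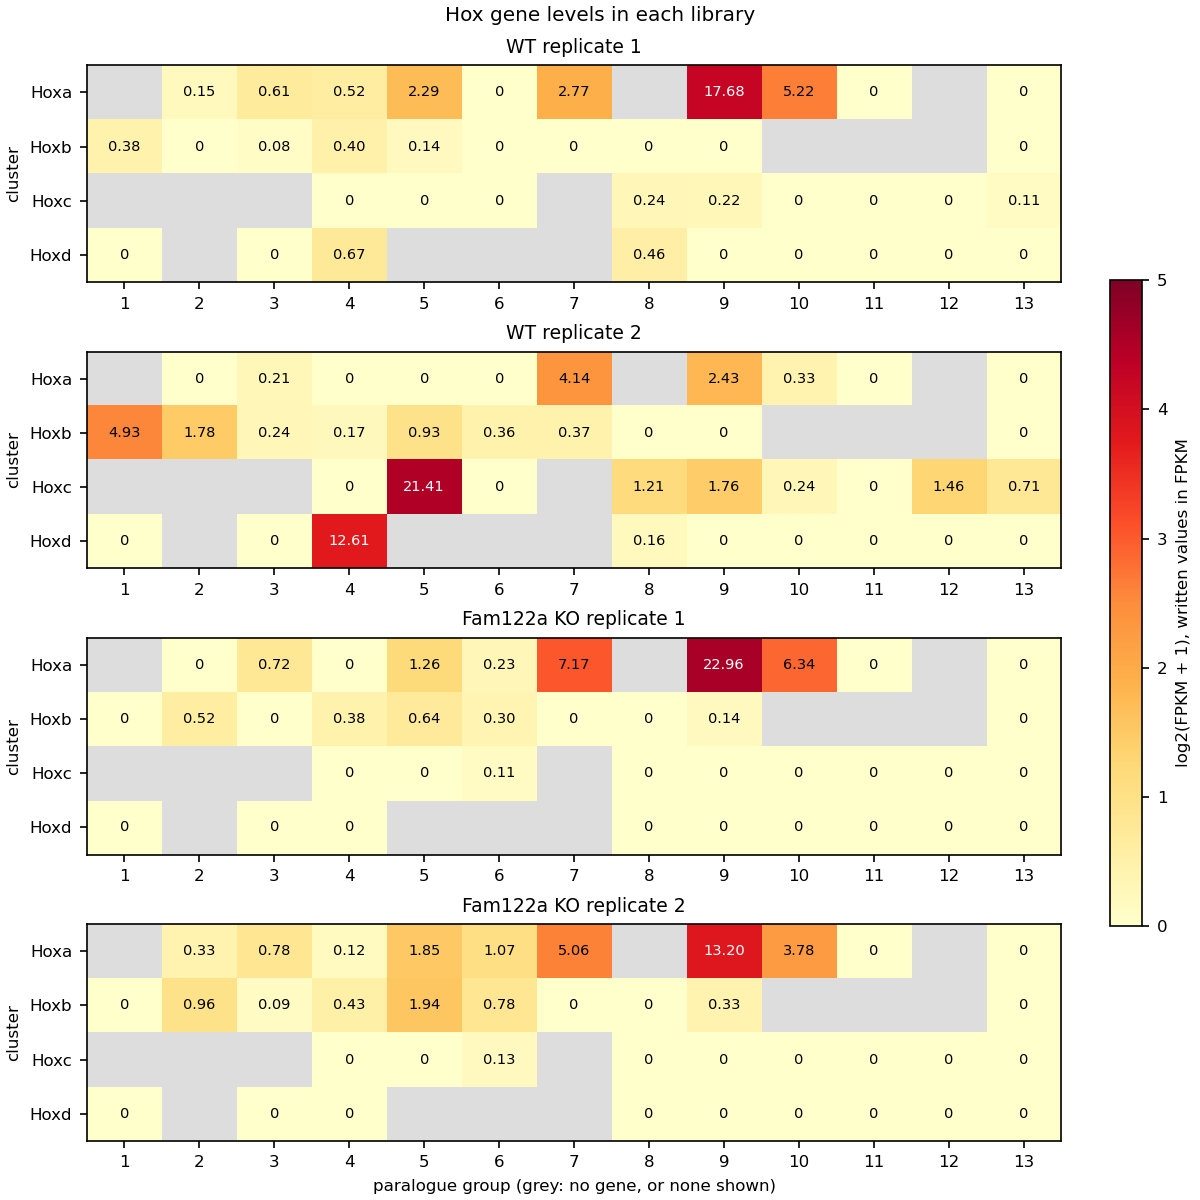
FPKM of the Hox genes in each library, arranged by cluster and paralogue group. In WT 1 and both KO libraries the 3 highest values are Hoxa7, Hoxa9 and Hoxa10, while in WT 2 the highest are Hoxc5 at 21.4 and Hoxd4 at 12.6 FPKM.

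Few members were expressed. At least 1 FPKM was reached by 4 of 39 members (10.3%) in WT 1, by 4 in KO 1 and by 6 (15.4%) in KO 2. Among all protein-coding genes it was 63.7%, 54.8% and 55.4%. The same 4 genes, Hoxa5, Hoxa7, Hoxa9 and Hoxa10, reached it in all 3 libraries, and Hoxa6 and Hoxb5 reached it in KO 2 only. Of the other 33 members, which stayed under 1 FPKM in these 3 libraries, 17 were at 0 in all 3 and 13 also in WT 2. Those 13 were Hoxa11, Hoxa13, Hoxb8, Hoxb13, Hoxc4, Hoxc11 and 7 of the 9 HoxD genes, that is all but Hoxd4 and Hoxd8. A count of 0 allows up to 3 fragments. For the members at 0 in WT 1 that is 0.264 to 1.12 FPKM, with Hoxa6 the highest. For those at 0 in KO 1 it is 0.166 to 0.567 FPKM, and in KO 2 0.188 to 0.645. These limits cover counting error only.

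By paralogue group, group 9 led with 17.9 FPKM in WT 1, 23.1 in KO 1 and 13.5 in KO 2, nearly all of it Hoxa9. Group 10 came to 5.22, 6.34 and 3.78 FPKM in the same order, all of it Hoxa10. Group 7 came to 2.77, 7.17 and 5.06 FPKM, all of it Hoxa7. Group 5, with Hoxa5 and Hoxb5, came to 2.43, 1.90 and 3.79 FPKM. Group 10 was thus second in WT 1, and group 7 in both KO libraries. The anterior groups 1 to 4 each stayed at or under 1.59 FPKM in these 3 libraries. Group 11 was at 0 in all 4 libraries, and groups 12 and 13, which pattern the distal limb and hind body, were at or under 0.11 FPKM outside WT 2.

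Hoxa9 was the most abundant member in WT 1, KO 1 and KO 2, but not in WT 2. It was at 17.7 FPKM in WT 1, 2.43 in WT 2, 23.0 in KO 1 and 13.2 in KO 2 (KO mean 18.1 ± 6.90, SD, n = 2). These levels lay at the 73.0th, 54.2nd, 76.8th and 67.5th percentile of protein-coding genes in their libraries and correspond to about 134, 11.1, 278 and 141 fragments. The KO libraries lay on either side of WT 1. Hoxa9 made up 55.1% of all Hox FPKM in WT 1, and 56.3% and 42.8% in KO. A miRNA gene, Mir196b, lies on the same strand inside the Hoxa9 span and shares 85 of its 5580 exonic bases.

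Hoxa10, which neighbours Hoxa9 and is also known to act in stem and progenitor cells, was at 5.22 FPKM in WT 1, 0.33 in WT 2, 6.34 in KO 1 and 3.78 in KO 2 (KO mean 5.06 ± 1.81, SD, n = 2). Again the KO libraries lay on either side of WT 1. The ratio of Hoxa9 to Hoxa10 was 3.39 in WT 1, 3.62 in KO 1 and 3.49 in KO 2, a narrower spread than that of either gene's level over these 3 libraries.

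Hoxa7, a gene of the middle of the cluster, was at 2.77 FPKM in WT 1, 4.14 in WT 2, 7.17 in KO 1 and 5.06 in KO 2. Both KO libraries were above both WT libraries. The values rest on about 5.69, 5.34, 23.1 and 14.3 fragments, so the WT levels are imprecise. These fragment numbers use a median transcript length of 725 bases, and a longer transcript would give more. The ratio of Hoxa9 to Hoxa7 was 6.38 in WT 1 against 3.20 and 2.61 in KO. Reads were not marked by strand, and the antisense gene Hoxaas3 overlaps 586 of the 2876 exonic bases of Hoxa7. Hoxaas3 was at 0.12 FPKM in WT 1, 0 in WT 2, 0 in KO 1 and 3.07 FPKM in KO 2, and its part in the Hoxa7 values was not tested.

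Hoxa5, which has been linked to the choice between myeloid and erythroid fates, was at 2.29 FPKM in WT 1, 0 in WT 2, 1.26 in KO 1 and 1.85 in KO 2. Both KO libraries lay below WT 1, on 15.9, 13.9 and 17.9 fragments in the 3 libraries. Hoxa6 was at 0 in both WT libraries, 0.23 FPKM in KO 1 and 1.07 in KO 2, the last on about 3.98 fragments. That KO 2 value is under the 1.12 FPKM that 3 fragments of Hoxa6 would give in WT 1. The remaining HoxA genes were lower. Hoxa3 had 0.61, 0.72 and 0.78 FPKM in WT 1, KO 1 and KO 2, Hoxa4 had 0.52, 0 and 0.12, and Hoxa2 had 0.15, 0 and 0.33. Hoxa11 and Hoxa13 were at 0 in all 4 libraries.

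**Figure D2:**
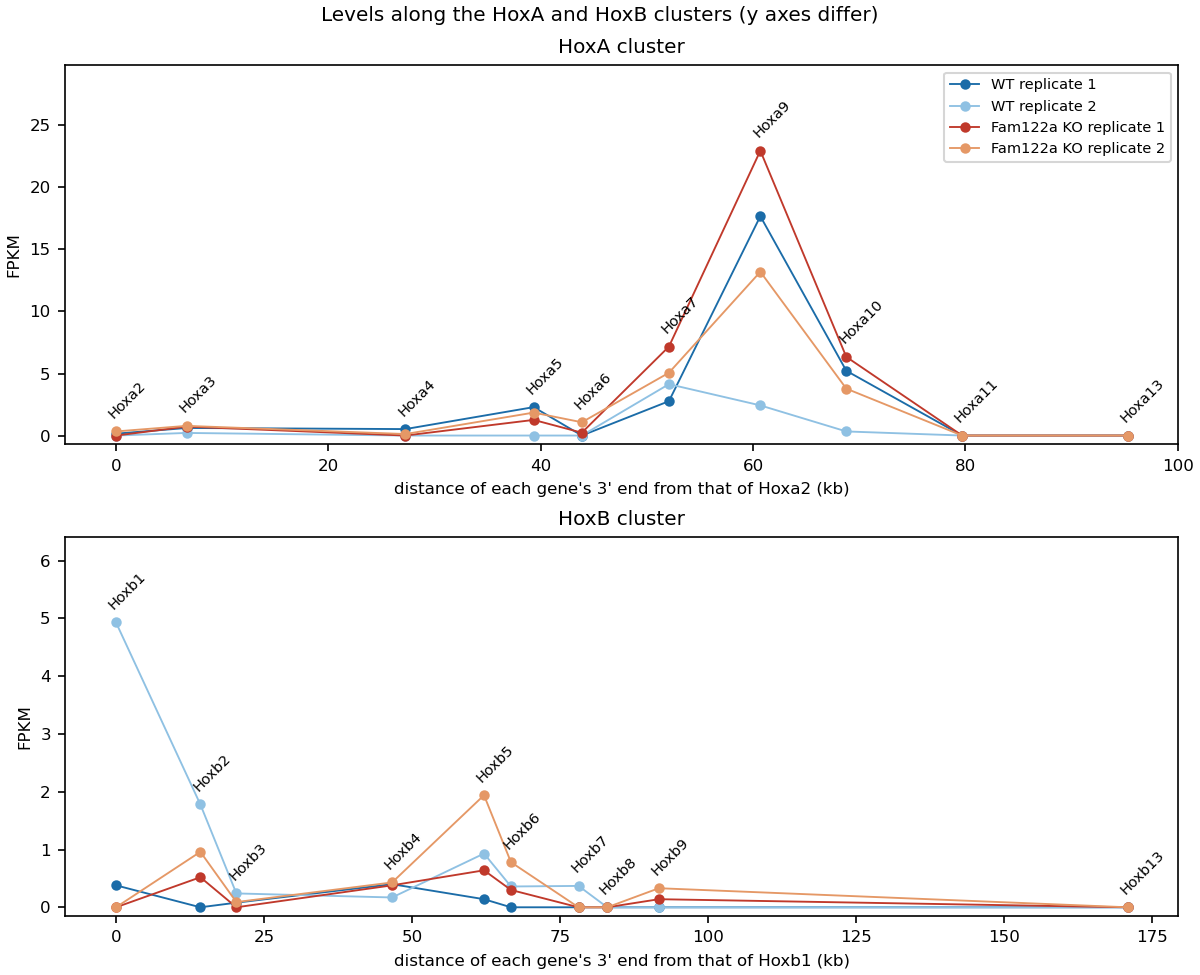
FPKM (y axis, a different range in each panel) of the HoxA and HoxB genes drawn, each plotted against the distance in kb of its 3′ end from that of Hoxa2 or Hoxb1, with a coloured line per library. In WT 1, KO 1 and KO 2 HoxA peaks at Hoxa9 with 17.7, 23.0 and 13.2 FPKM, and the HoxB peak outside WT 2 is Hoxb5 in KO 2, at 1.94 FPKM.

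In HoxB the member with the highest value outside WT 2 was Hoxb5, which has been used as a marker of LT-HSCs. It was at 0.14 FPKM in WT 1, 0.93 in WT 2, 0.64 in KO 1 and 1.94 in KO 2, on about 0.98, 3.92, 7.13 and 19.0 fragments. The WT 1 value is therefore about a single fragment. Hoxb5os, antisense to Hoxb5 over 100 bases, was at 0, 0, 1.26 and 1.45 FPKM, which is about 1.09 fragments in KO 1 and 1.10 in KO 2. Hoxb4, known for expanding stem cells when overexpressed, was at 0.40 FPKM in WT 1, 0.17 in WT 2, 0.38 in KO 1 and 0.43 in KO 2, a narrow range outside WT 2. Hoxb2 was at 0, 1.78, 0.52 and 0.96 FPKM in the same order, Hoxb6 at 0, 0.36, 0.30 and 0.78, and Hoxb9 at 0, 0, 0.14 and 0.33. Hoxb2 shares 953 bases with the antisense gene Hoxb3os. Hoxb3 stayed at or under 0.24 FPKM in all 4 libraries, and Hoxb7 was seen in WT 2 alone, at 0.37 FPKM.

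Low members split in both directions between KO and WT 1. In all, 7 members, among them Hoxb1, Hoxc8, Hoxc9, Hoxc13, Hoxd4 and Hoxd8, were above 0 in WT 1 and at 0 in both KO libraries. Their WT 1 values were 0.11 to 0.67 FPKM, or about 1.03 to 5.06 fragments. Of these 7, 6 were also above 0 in WT 2, and 5 were higher there. The reverse held for 5 members (Hoxa6, Hoxb2, Hoxb6, Hoxb9 and Hoxc6), at 0 in WT 1 and at 0.11 to 1.07 FPKM, about 0.973 to 7.88 fragments, in the KO libraries. Such counts lie near the limit that 3 fragments set. Zeros were also more frequent in KO among all 21793 protein-coding genes: 3825 were at 0 in WT 1, 6411 in KO 1 and 6432 in KO 2. The share of all protein-coding genes with either pattern was not counted. Both KO libraries were above WT 1 for 8 of 39 members (20.5%), against 31.4% of all protein-coding genes, and below it for 9 (23.1%), against 41.7%. Genes at 0 in WT 1 and both KO libraries can be neither. They were 43.6% of members and 14.2% of protein-coding genes, so the lower Hox shares do not show that Hox genes differed less often. By cluster, above and below were 3 and 3 in HoxA, 4 and 1 in HoxB, 1 and 3 in HoxC, and 0 and 2 in HoxD.

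No Hox gene passed the limma test between KO and WT 1. Of 19662 genes with at least 1 FPKM in at least 1 of the 3 libraries, 4021 passed an adjusted p of 0.05, a background of 20.5%. Many of these calls rest on zeros: all 2170 tested genes at 0 in both KO libraries passed, since that pair then has no spread, and of the other 17492 genes, 1851 passed (10.6%). Of the 6 Hox genes tested, 0 passed and 0 had an unadjusted p under 0.05, against 38.6% of all genes tested. Hoxa6 and Hoxb5 entered the test only through KO 2. The log2 difference, KO minus WT 1 on the log2(FPKM + 1) scale, was -0.0182 for Hoxa9 (SE 0.51, 95% interval -2.63 to 2.60, adjusted p = 0.982). It was -0.0705 for Hoxa10 (SE 0.44, -2.35 to 2.20, adjusted p = 0.918). Hoxa7 had a difference of 0.90 (SE 0.33, -0.79 to 2.59, adjusted p = 0.235). Hoxa5 had -0.37 (SE 0.23, -1.57 to 0.82, adjusted p = 0.382), Hoxa6 0.67 (SE 0.50, adjusted p = 0.441) and Hoxb5 0.95 (SE 0.56, adjusted p = 0.367). The 6 differences had a median of 0.33, against -0.16 over all genes tested and 0.02 over protein-coding ones. That median is raised by Hoxa6 and Hoxb5, which entered through KO 2. When 1 FPKM was needed in 2 libraries, the 4 Hox genes left had a median of -0.044, against 0.12 over all genes tested. Each interval includes 0 and is wide, and a p that missed the threshold does not show that the levels were alike.

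With both WT libraries in the fit, 0 of 18214 genes passed (0%), and 4070 (22.3%) had an unadjusted p under 0.05. The 4 Hox genes tested had log2 differences of 1.20 for Hoxa9, 1.04 for Hoxa10, 0.68 for Hoxa7 and 0.48 for Hoxa5, with adjusted p from 0.524 to 0.651 by limma. For Hoxa9, Hoxa10 and Hoxa5 the sign turned on the WT library: without WT 2 their differences were -0.0182, -0.0705 and -0.37, and without WT 1 they were 2.43, 2.16 and 1.34. Hoxa7 was higher in KO against either WT library, at 0.90 and 0.45, with no call.

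WT 2 had more Hox genes at 1 FPKM, with 9 of 39 (23.1%), against 58.2% of protein-coding genes. Hoxc5 was at 21.4 FPKM there and at 0 in the other 3 libraries. Hoxd4 was at 12.6 FPKM, against 0.67 in WT 1 and 0 in KO, and Hoxb1 at 4.93, against 0.38, 0 and 0. Hoxc5 and Hoxd4 together made 61.4% of Hox FPKM in WT 2 and 2.09% in WT 1. Hoxc5 has the largest ratio of genomic span to exonic length among the members, 16.2, and Hoxd4 has 5.85. The median member is at 1.62 and the median protein-coding gene at 4.89. Hoxb1 has only 1.08. Apart from Hoxc5, the members with a larger ratio than Hoxd4 are Hoxd3 (8.71), Hoxa3 (7.36) and Hoxc4 (6.98). They were at 0, 0.21 and 0 FPKM in WT 2. The part of span in these values was not tested. The median level of protein-coding genes with a ratio of 16 or more was 27.5 FPKM in WT 2, 7.20 in WT 1, 0.91 in KO 1 and 1.01 in KO 2. The Hoxc5 model runs across Hoxc9, Hoxc8 and Hoxc6 without sharing exonic bases with them, and shares 166 of its 3089 exonic bases with Hoxc10. Hoxd4 shares 1542 of 2948 exonic bases with Hoxd3 and Gm28230 on the same strand. The counts of Hoxc5 and Hoxd4 are therefore uncertain.

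**Figure D3:**
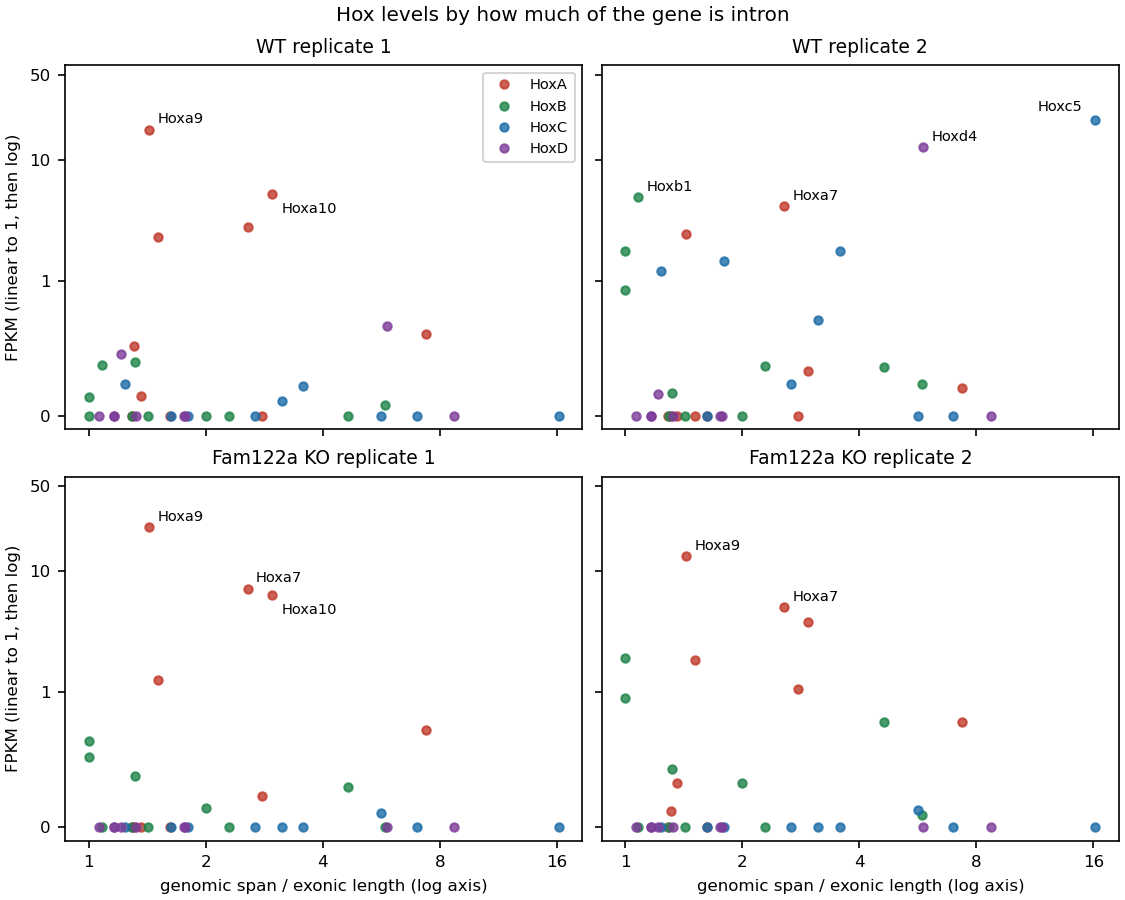
FPKM of each Hox gene (y axis, linear to 1 and then log) drawn, against the ratio of its genomic span to its exonic length (log x axis), a panel per library, coloured by cluster. In WT 2 the highest points are Hoxc5 at a ratio of 16.2 and Hoxd4 at 5.85, and in the other 3 libraries the highest is Hoxa9.

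Other RNA inside the clusters was sparse. Of 43 annotated non-coding genes within the 4 clusters, 33 were at 0 in all libraries, including all 7 miRNA genes. The 4 that reached 1 FPKM in any library were Hoxaas3 and Hoxb5os, given above, Hoxaas2 at 0.08, 2.25, 0.78 and 0.50 FPKM in WT 1, WT 2, KO 1 and KO 2, and the pseudogene Gm11539 at 3.47 FPKM in WT 2 alone. Genes just outside were more abundant on some sides. Skap2, an adaptor gene beside HoxA, was at 143, 132, 112 and 94.3 FPKM in the same order. On the other side of HoxA, Evx1 was at 0, 1.46, 0 and 0.21. Skap1, beside HoxB, was at 18.7, 245, 8.64 and 8.71 FPKM, and Ttll6 on its other side at 0, 38.4, 0 and 0.05. Beside HoxC, Calcoco1 was at 9.42, 0.59, 16.7 and 15.0 FPKM and the repair gene Smug1 at 2.39, 0, 3.38 and 3.04. Beside HoxD, Mtx2 was at 26.1, 17.7, 19.2 and 23.1 FPKM and Evx2 at 0, 0.32, 0 and 0. Outside WT 2, HoxA, HoxB and HoxD each had a neighbour at or near 0 on one side and an expressed one on the other.

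Genes known to work with or on Hox genes were read from 3 lists. HOX proteins bind DNA with TALE homeodomain partners. Of 9 partners tested against WT 1, 1 passed as lower and 0 as higher, against 18.8% lower and 1.67% higher over all genes, with a median log2 difference of -0.13. Meis1, the main partner of HOXA9 in blood, was at 60.2 FPKM in WT 1, 3.71 in WT 2, 56.5 in KO 1 and 53.6 in KO 2. The call was Meis2, at 15.6, 117, 0.17 and 0.41 FPKM (log2 difference -3.69, SE 0.20, limma adjusted p = 0.0342). Meis2 entered the test only through WT 1, where it was high. Its span is 16.8 times its exonic length, and it was higher in WT 2 than in WT 1, as were the long-span genes above. The call ends with a pseudocount of 0.1 or with no filter on low values, and Meis2 is not tested when 1 FPKM is needed in 2 libraries. Pbx3, at 26.8, 225, 4.79 and 3.88 FPKM, had a difference of -2.39 that did not pass (adjusted p = 0.0606), and Meis3 had 1.12 (adjusted p = 0.106).

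Of 21 activators of Hox transcription, 18 were tested and 2 rose, against a background of 1.67% higher. Differences were positive for 15, against 43.5% of all genes tested and 51.1% of protein-coding ones, with a median of 0.54. Aff4, part of the elongation complex joined to MLL fusions, was at 46.9 FPKM in WT 1, 77.8 in KO 1 and 76.7 in KO 2 (0.71, SE 0.04, adjusted p = 0.0411). Mllt1, another elongation gene fused to MLL, was at 9.88 FPKM and 23.5 and 24.0 (1.19, SE 0.08, adjusted p = 0.0431). Kat7, a histone acetyltransferase, had 0.46 and did not pass (adjusted p = 0.0622).

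Polycomb proteins keep Hox clusters silent, but the Polycomb list also holds Bap1, whose protein acts on their mark as given below. All 19 genes of the list were tested. Of these, 3 rose, against the same 1.67%, and 18 had positive differences, against the same 43.5% and 51.1%, with a median of 0.67. Phc2 was at 31.5 FPKM in WT 1, 63.5 in KO 1 and 63.4 in KO 2 (0.99, SE 0.04, adjusted p = 0.0281). Bap1, a deubiquitinase that removes the Polycomb mark, was at 26.2 FPKM and 63.5 and 66.5 (1.28, SE 0.06, adjusted p = 0.0307). These 5 higher calls end when genes must reach 1 FPKM in 2 libraries, and with both WT libraries in the fit none of the 3 lists had a call. The calls of Aff4 and Mllt1 also ended with no filter, with a filter at 5 FPKM and with quantile normalization. The Phc2 call ended with a filter at 5 FPKM and with quantile normalization, and the Bap1 call with no filter. Neutrophil transcripts took a larger part of FPKM in WT 1, as given above, and their part in the differences of these lists was not tested.

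**Figure D4:**
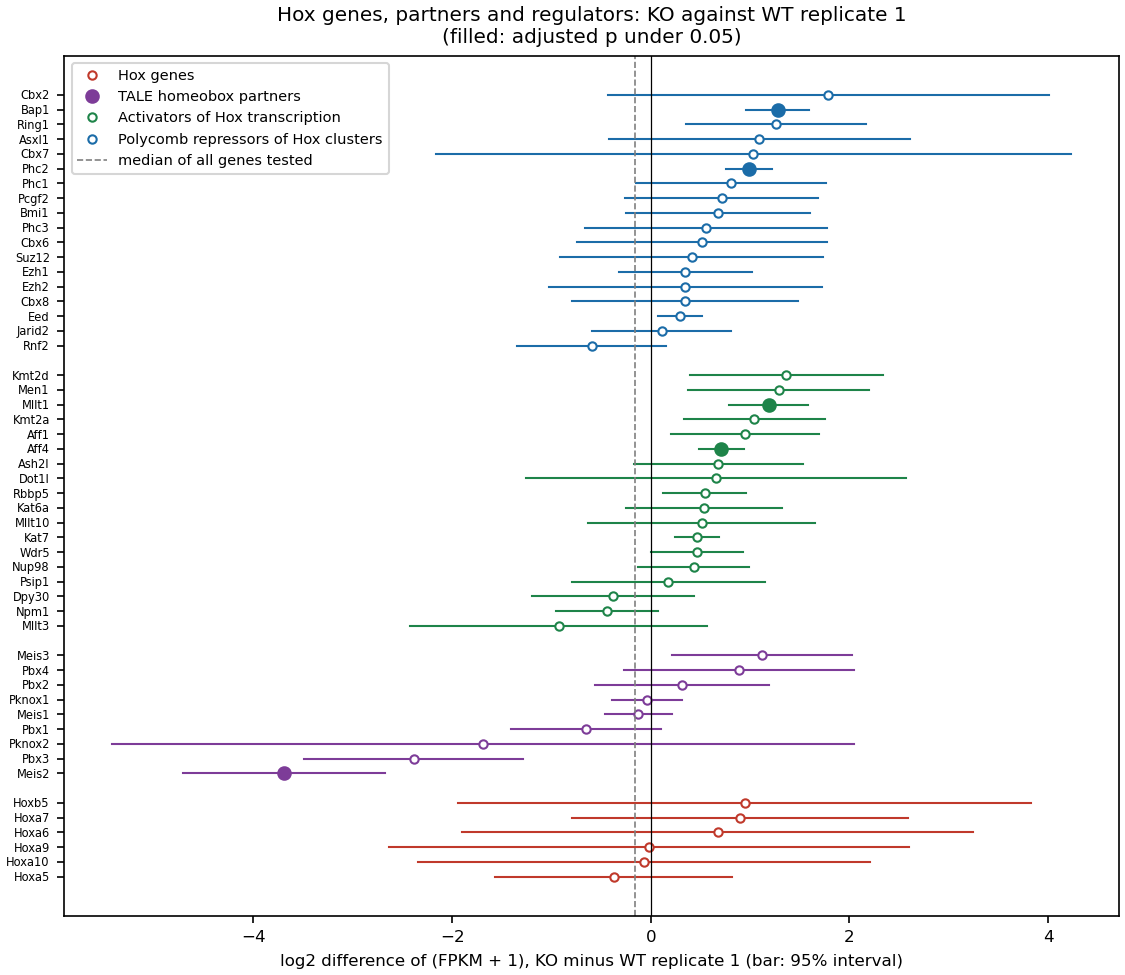
Log2 difference, KO minus WT 1 on the log2(FPKM + 1) scale (x axis), of the tested Hox genes and the 3 lists, with 95% intervals from limma as bars, filled points for an adjusted p under 0.05 and a dashed line at the median of all genes tested, -0.16. Each of the 6 Hox intervals crosses 0, and the filled points are Meis2, Aff4, Mllt1, Phc2 and Bap1.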

How the data were processed

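RNA from LT-HSCs of 2 WT and 2 Fam122a KO libraries was made into cDNA with the SMART-Seq v4 kit, per the labels' protocols; it does not mark strand. The deposited files hold 1 value per feature without a header, taken here as FPKM from the values. Per the submitters' processing notes, bcl2fastq, STAR 2.7.1a, HISAT2 2.1.0, GRCm38.p5 and mm10 were used; their roles are not given. The quantifier and its annotation: not given in the sources used here. Another 35791 rows with identifiers that name no gene (9.14% and 53.9% of summed FPKM in WT, 1.74% and 1.81% in KO) were left out. Coordinates and gene types are from GENCODE M21 (GRCm38), which held 51633 of the 51912 Ensembl genes.

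The files give no depth. It was estimated from steps in low values of single-transcript genes, and 83.1% to 89.3% of those values lay within 0.1 of a whole number of fragments. Of 17 values above 0 among the 15 members with 1 transcript, 15 did. Fragment numbers are therefore estimates. For members with more transcripts they use the median transcript length and were not checked in this way.

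Groups were compared with limma 3.58.1 in R 4.3.3, fitted to log2(FPKM + 1) values with eBayes and its intensity trend; this scale understates changes of low genes. P-values were adjusted over all tested genes by Benjamini-Hochberg and called under 0.05. With both WT libraries, genes needed 1 FPKM in 2 libraries. Against WT 1 alone, they needed it in 1, and the lone WT library has to be taken to vary as the KO pair does. The labels call the libraries of a group biological replicates. The test was tried on simulated data in which every library had the smoothed spread of the KO pair. That trial held no library like WT 2 and no gene without spread, so it cannot speak to the calls here. Alternatives covered the filter, pseudocount, scaling, the replicate block and each library left out.

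Every member is counted, and those at 1 FPKM in WT 1 or KO are named with all values. From the 3 lists, the 3 genes with the smallest p are named; Meis1 was chosen after its values were seen. Some genes are not reported here by name and are left out of the figures. Members and lists were chosen with earlier results of these data known.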

Additional observations from a re-analysis of the deposited data

How the results depend on the processing

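With both WT libraries, 0 genes passed under each filter, pseudocount and scaling tried, and the count ranged from 0 to 11126 as each library was left out: 11126 of 13875 without WT 1, 221 without WT 2 and 0 without either KO library. Replicate numbers gave no pairing, as deviations of same-numbered libraries correlated at 0.0553. With the replicate number as a block, 0 genes passed and 4201 had an unadjusted p under 0.05. Against WT 1, the 4021 calls became 7890 with no filter, 1155 with a filter at 5 FPKM, 221 with a filter at 1 FPKM in 2 libraries and 2433 with quantile normalization. With no filter, the Hox genes that passed, among them Hoxb1, Hoxc8, Hoxc9, Hoxc13, Hoxd4 and Hoxd8, were all at 0 in both KO libraries. There the pair has no spread, and all tested genes with that pattern also passed in the main fit. Otherwise no Hox gene passed against WT 1.

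Some signs turned. Without WT 2, the differences of Hoxa5, Hoxa9 and Hoxa10 became -0.37, -0.0182 and -0.0705. Against WT 1, quantile normalization gave 0.59 for Hoxa5 and 0.52 for Hoxa10, and equal coding FPKM gave 0.17 for Hoxa9 and 0.10 for Hoxa10. Equal coding FPKM also moved the median of all genes from -0.16 to 0.02. Without WT 1, the differences of Hoxa5, Hoxa9 and Hoxa10 were 1.34, 2.43 and 2.16, against a median of 1.61 over all genes tested. Without KO 2, Hoxa9 had 0.36 and Hoxa10 0.24 against WT 1. The cause of these turns was not tested. With 1 KO library against WT 1 there is no test. Of 135 alternative values with a test for the genes followed, 104 kept their direction and side of the threshold, 19 lost a call, 5 gained one and 7 turned sign. Of 30 without a test, 2 turned sign.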
